A study of Mus musculus with 6 samples.

Results

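The genes described here were expressed in parental 4T1 cells and had next to no transcripts in axitinib-resistant 4T1 cells. 4T1 is a mouse mammary carcinoma line, and axitinib is an inhibitor of the VEGF receptor tyrosine kinases. The genes were chosen by their measured levels, being taken when the level was at least 2 CPM (the estimated count of a gene per 1000000 counts of the library) in every parental (P) library and under 0.5 CPM in every axitinib-resistant (AxR) library. Of the 53465 genes in the table, 11336 reached 2 CPM in every P library, and 54 of these (0.476%) were under 0.5 CPM in every AxR library. The opposite limits were met by 45 of the 11406 genes at 2 CPM or more in every AxR library (0.395%). Of 10 genes set aside by name, 9 were among the 54, which left 45 genes. The same levels are given as a description and are not tested.

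Poly(A) RNA was sequenced from 3 libraries per line. P cells were the starting line, which the study calls vehicle-treated. AxR cells came from a lung or lymph node metastasis that arose after removal of the primary tumor in mice given axitinib at 100 mg/kg/day, and were kept in 0.5 μM axitinib for more than 2 months. The growth label names 0.5 μM axitinib for all 6 libraries and the treatment label for the AxR libraries only, so the presence of the drug in P medium is not settled by the labels. All 3 AxR libraries come from 1 derived line, and nothing says that the libraries of a line were separate cultures, so the p-values below measure the spread between these libraries, which may be technical. Depth was 15495260 to 17294525 estimated counts per library, so that 1 count was worth 0.0578 to 0.0645 CPM. In bulk RNA, fewer expressing cells and less RNA per cell cannot be told apart.

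Both lines carried epithelial and mesenchymal transcripts. Krt8, Krt18, Epcam and Cdh1 were present at 315, 680, 75.9 and 560 CPM in P and at 498, 859, 128 and 838 CPM in AxR. Of 10 luminal epithelial markers 5 were higher and 5 lower in AxR (edgeR quasi-likelihood test, adjusted p under 0.05), against 32.8% higher and 30.8% lower over all 13550 genes tested. The lower ones were Cldn7 (8.27 to 0.745 CPM), Krt19 (8.94 to 3.54 CPM), Cldn3 (61.6 to 31.5 CPM), Elf3 (21.2 to 17.1 CPM) and Cldn4 (244 to 213 CPM). The 11 basal and mesenchymal markers summed to 4992 to 5229 CPM in P and 3421 to 3721 CPM in AxR. Of these 8 were tested, 5 being lower and 3 higher in AxR. Lower were Fn1 (3644 to 2729 CPM), Vim (1312 to 712 CPM), Zeb2 (123 to 55.0 CPM), Twist1 and Snai1. Higher were Krt14 (1.09 to 5.87 CPM), Zeb1 (0.0616 to 3.40 CPM) and Trp63 (0.0627 to 1.11 CPM). Of 11 leukocyte markers, 5 were at 0 in every library and the highest pair, Cd68 and Cd14, stood at 3.41 and 3.53 CPM in P against 7.95 and 8.32 CPM in AxR. The summed level of the 9 endothelial markers was 0.452 to 0.703 CPM in P and 0.184 to 0.380 CPM in AxR, and Kdr, Cldn5, Erg and Emcn were at 0 throughout. The 10 fibroblast markers summed to 31.2 to 35.4 CPM in P and 273 to 284 CPM in AxR, with Col3a1, Thy1 and Lum at 0 in every library. Postn alone carried the higher sum, at 9.63 ± 1.34 CPM in P and 268 ± 6.09 CPM in AxR, while Pdgfra was at 22.7 ± 0.746 and 10.1 ± 0.855 CPM and the other markers averaged 0.548 CPM or less in both lines. None of the 45 genes is on a marker list. The 7 lung epithelial markers summed to 0.586 to 1.17 CPM in P and 4.04 to 4.22 CPM in AxR, of which Foxj1 made up 0.581 CPM in P and 3.76 CPM in AxR on average, with Nkx2-1 and Scgb1a1 at 0 throughout. The part of other cell types in the differences between the lines was not tested.

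As background, a carcinoma line keeps genes of its epithelial origin active while many tissue-restricted genes stay silent, and daughter lines can differ in which of these are transcribed. Gene promoters in mammals fall broadly into those rich in CpG dinucleotides, often of widely used or developmental genes, and those poor in CpG, often of genes used in few tissues.

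The 45 genes summed to 359, 354 and 358 CPM in the 3 P libraries and to 5.07, 4.73 and 5.10 CPM in the 3 AxR libraries, 1.39% of the P level. These sums lay close together within each line, but the limits hold for every library of a line and in part fix this. In AxR, 13 genes had no count in any library, 8 had 1 to 3 counts over the 3 libraries, and 24 had more than 3. Counts were seen in every AxR library for 17 genes. The AxR level of a gene was 0.983% of its P level in the median and 15.1% at most. Every gene passed the filter on low counts through its P counts, so a count of tested members would carry no information and is not given.

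**Figure D1:**
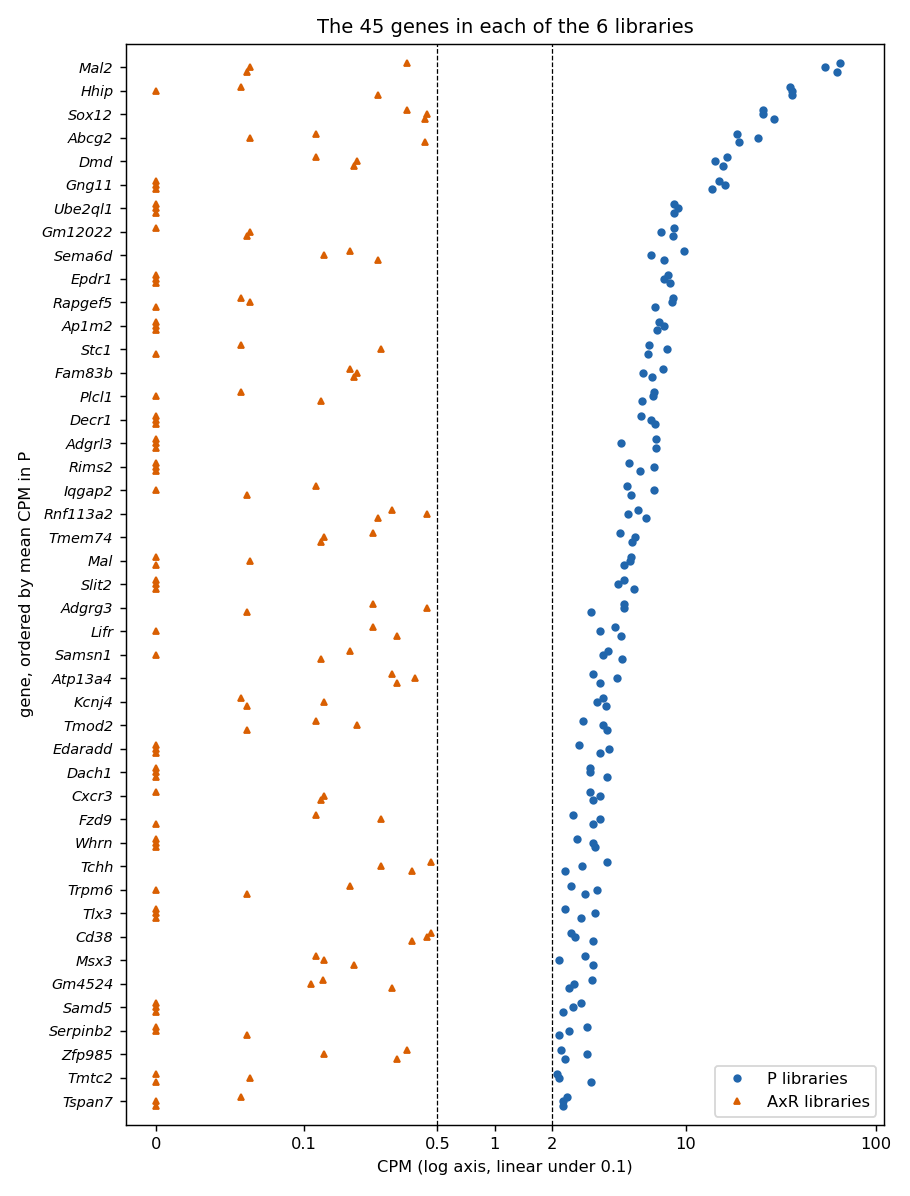
Level of each of the 45 genes (rows, ordered by mean CPM in P) in the 3 P libraries (circles) and the 3 AxR libraries (triangles), in CPM on a log axis that is linear under 0.1. The dashed lines mark the 0.5 and 2 CPM limits that chose the genes, and 13 genes have all 3 triangles at 0.

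Most of the set was lowly expressed to begin with. Mean P levels ran from 2.32 CPM for Tspan7 to 60.3 CPM for Mal2, with a median of 4.87 CPM against 36.8 CPM over all genes at 2 CPM or more in every P library. Per kb of exon the median level was 0.979 CPM per kb, against 8.52 CPM per kb over those genes. Only 6 genes averaged 10 CPM or more, and 39 lay under it. The 10 highest held 58.1% of the summed P level. The coefficient of variation over the P libraries ran from 1.76% (Hhip) to 25.6% (Tchh), with a median of 12.2%. The library with the highest value of a gene was P replicate 1 for 16 genes (35.6%), replicate 2 for 15 (33.3%) and replicate 3 for 14 (31.1%). Over all genes at 2 CPM or more in every P library these shares were 35.2%, 46.5% and 18.3%. The limits themselves ask for 2 CPM in each P library.

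**Figure D2:**
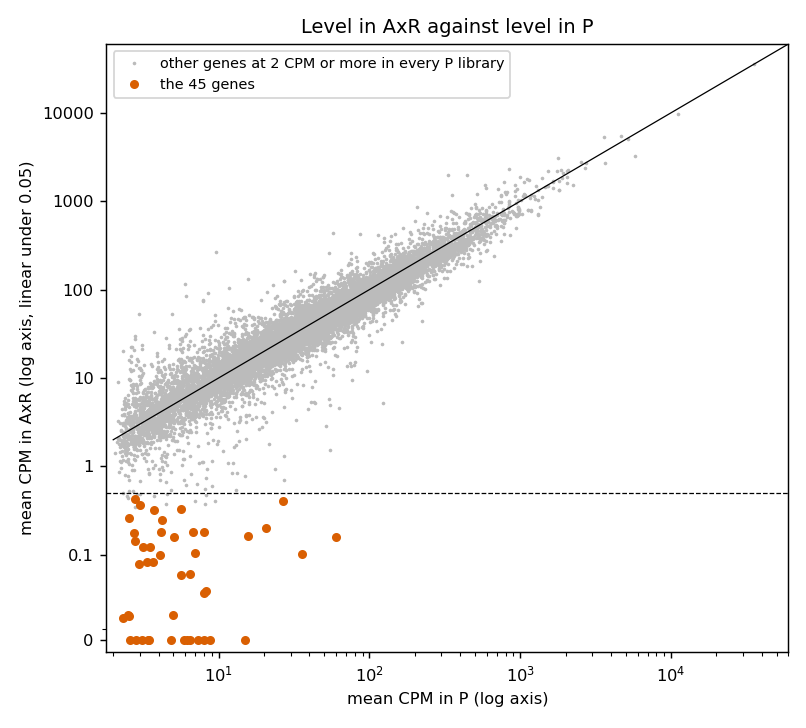
Mean level in AxR (vertical axis, CPM, log axis that is linear under 0.05) against mean level in P (horizontal axis, CPM, log axis) for every gene at 2 CPM or more in each P library. The diagonal marks equal levels and the dashed line 0.5 CPM. The 45 genes (large points) lie under the dashed line, 39 of them left of 10 CPM, and the 9 genes set aside are not drawn. The few small points under the line had at least 1 AxR library at 0.5 CPM or more.

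The limits cut through a continuous range of values. The genes with the lowest P value inside them were Tmtc2 (2.13 CPM), Serpinb2 (2.16 CPM) and Msx3 (2.17 CPM), and the nearest outside were Mboat2 (1.97 CPM), Rbp2 (1.94 CPM) and Gm26877 (1.94 CPM). On the AxR side, Cd38 (0.463 CPM), Tchh (0.463 CPM) and Sox12 (0.443 CPM) lay just inside, and Rgs20 (0.520 CPM), Mctp1 (0.552 CPM) and Dll4 (0.552 CPM) just outside. Rbp2 had no count in any AxR library and was left out only by its P level.

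Of the 45 genes, 43 (95.6%) are protein coding, 1 is a long intergenic noncoding RNA (Gm12022) and 1 an antisense RNA (Gm4524). Over all genes at 2 CPM or more in every P library the protein-coding share was 91.3%, and over those with a mean under 10 CPM it was 74.5%. The genes were long. The median span from start to end of the gene model was 43.8 kb, against 22.2 kb over all genes at 2 CPM or more in every P library and 10.9 kb over those with a mean under 10 CPM. A span over 100 kb was found for 16 genes (35.6%), against 11.8% and 8.52% in those 2 sets. The sets also differ in protein-coding share, as given above, and spans were not compared among protein-coding genes alone. The longest were Dmd (2257 kb), Adgrl3 (805 kb), Sema6d (578 kb) and Rims2 (486 kb). Exon length differed less, at a median of 4.93 kb against 4.43 kb over all genes at 2 CPM or more in every P library.

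RefSeq promoter windows, 250 bases before to 50 bases after a start site, were on hand for 37 of the 45 genes on build GRCm38.p6. Where a gene has several windows the one with the highest CpG ratio was used, and 5 windows (Rapgef5, Lifr, Abcg2, Samsn1 and Dmd) start more than 1 kb from the 5′ end of the gene model. A window was called CpG-rich at an observed to expected CpG ratio of at least 0.6 with a GC content of at least 50%. By that measure 21 of 37 windows (56.8%, 95% Wilson interval 40.9 to 71.3) were CpG-rich, and the ratio ran from 0.0533 for Cd38 to 1.18 for Fzd9. Over the 27025 genes of the promoter table, expressed or not, the share was 35.9%. Of the genes at 2 CPM or more in every P library that had a window, 78.8% were CpG-rich, and of those with a mean under 10 CPM 63.3%. Over all genes tested the share was 75.1%. Only 74.5%, 63.7% and 69.6% of the genes in these sets had a window, under the 80% coverage set as a minimum. The comparison of the 45 genes with expressed genes is thus void. The 35.9% includes genes that are not expressed, so no conclusion is drawn from it either. Silence in AxR was seen with both kinds. No count in any AxR library was found for 8 of the 21 CpG-rich windows and for 2 of the other 16.

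The 4 windows shown are a pair of CpG-rich and a pair of CpG-poor promoters of genes at or near 0 in AxR, each 5′ to 3′ on the minus strand of GRCm38.p6 from RefSeq, with every CG dinucleotide in capitals. They let the CpG density of both kinds be read directly. They cover chr8:80057959-80058258 (Hhip), chr9:21312284-21312583 (Ap1m2), chr2:127656646-127656945 (Mal) and chr13:19619781-19620080 (Epdr1).
Hhip: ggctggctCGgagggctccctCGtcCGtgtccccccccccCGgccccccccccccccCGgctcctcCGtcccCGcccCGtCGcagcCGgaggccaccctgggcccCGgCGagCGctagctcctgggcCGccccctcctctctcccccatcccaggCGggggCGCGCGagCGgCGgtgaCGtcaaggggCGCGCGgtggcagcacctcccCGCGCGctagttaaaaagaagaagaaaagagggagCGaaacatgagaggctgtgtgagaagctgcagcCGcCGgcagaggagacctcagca
Ap1m2: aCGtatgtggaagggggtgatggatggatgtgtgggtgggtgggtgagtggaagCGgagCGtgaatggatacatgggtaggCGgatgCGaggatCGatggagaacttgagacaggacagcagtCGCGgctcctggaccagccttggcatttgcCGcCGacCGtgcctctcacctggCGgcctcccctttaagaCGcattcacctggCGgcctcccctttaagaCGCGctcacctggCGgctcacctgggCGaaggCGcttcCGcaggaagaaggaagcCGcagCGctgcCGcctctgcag
Mal: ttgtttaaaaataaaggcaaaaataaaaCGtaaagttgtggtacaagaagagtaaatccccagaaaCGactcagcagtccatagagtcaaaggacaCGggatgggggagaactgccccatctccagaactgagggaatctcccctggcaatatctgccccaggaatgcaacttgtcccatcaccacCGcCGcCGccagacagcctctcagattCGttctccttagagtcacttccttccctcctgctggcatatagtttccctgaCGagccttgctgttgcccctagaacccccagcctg
Epdr1: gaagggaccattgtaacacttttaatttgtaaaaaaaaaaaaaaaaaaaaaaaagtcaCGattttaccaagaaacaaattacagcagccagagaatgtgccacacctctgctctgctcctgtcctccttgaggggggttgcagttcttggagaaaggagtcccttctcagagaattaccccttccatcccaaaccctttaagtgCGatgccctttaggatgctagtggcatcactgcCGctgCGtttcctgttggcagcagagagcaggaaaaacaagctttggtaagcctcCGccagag
The Hhip window holds 30 CG dinucleotides at a ratio of 0.747 and the Ap1m2 window 23 at 0.791. The Mal window holds 8 at a ratio of 0.423 and the Epdr1 window 5 at 0.321. Hhip kept 5 counts over the 3 AxR libraries and Mal 1, while Ap1m2 and Epdr1 had none. The letters TATAAA, searched on both strands, occurred in a window of 6 of the 37 genes (16.2%), against 15.7% of all genes of the promoter table. GGGCGG, also on both strands, occurred in 24 (64.9%), against 38.2% of all genes of that table. With the same gaps in coverage, GGGCGG was found in 72.3% of the genes at 2 CPM or more in every P library and in 64.5% of those with a mean under 10 CPM, and TATAAA in 7.93% and 8.45%.

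**Figure D3:**
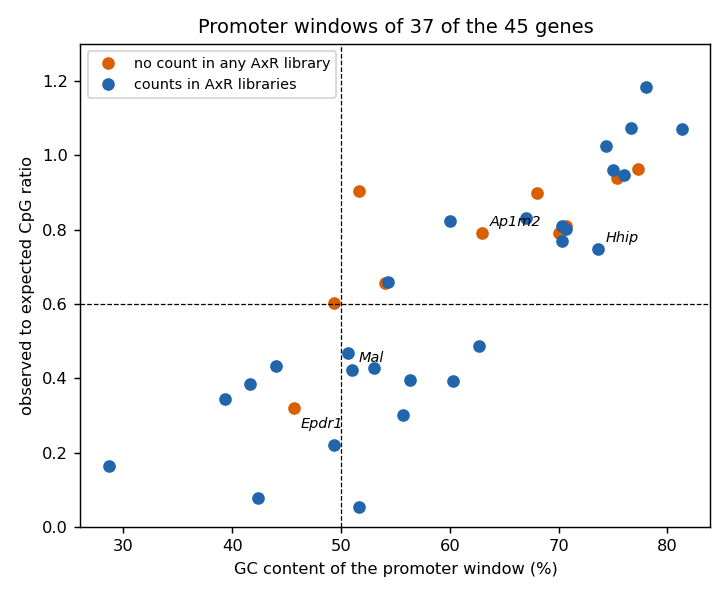
Observed to expected CpG ratio (vertical axis) against GC content in percent (horizontal axis) of the promoter windows of 37 of the 45 genes. The dashed lines mark the limits of 0.6 and 50% for a CpG-rich window. Genes without a count in AxR (orange) and those with counts (blue) occur on both sides of the limits, 8 of 21 and 2 of 16 being without a count.

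Membrane traffic and vesicle release was the role with the highest level in P, through Mal2. MAL2 and MAL are tetraspanning lipid-raft proteins of apical transport, MAL2 acting in transcytosis in polarized epithelial cells. Mal2 (ENSMUSG00000024479.3, chr15:54571192-54602847) was at 62.0, 54.0 and 64.8 CPM in the P libraries and at 0.0613, 0.0633 and 0.347 CPM in the AxR libraries. The 3 AxR values stand for 1, 1 and 6 counts. On summed counts the P level was 371-fold the AxR level (95% interval 188 to 860, counting error only). Mal was at 4.75, 5.10 and 5.16 CPM in P, and a single count was found among the AxR libraries. Among their relatives, Mall was at 1.85 ± 0.028 CPM in P and 3.10 ± 0.492 CPM in AxR (SD, n = 3 each), and Cmtm4 at 425 ± 6.33 and 362 ± 7.14 CPM.

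Ap1m2 encodes the epithelial mu subunit of the AP-1 clathrin adaptor, which sorts cargo to the basolateral membrane. It was at 7.10, 7.73 and 7.23 CPM in P, and no AxR library had a count, which makes P at least 121-fold higher when a floor of 3 counts over the AxR group is used. The ubiquitous mu subunit, Ap1m1, was at 53.5 ± 4.14 CPM in P and 35.1 ± 0.274 CPM in AxR. Per kb of exon, Ap1m1 in P was at 16.8 and Ap1m2 at 2.34 CPM per kb. All 7 other subunit genes stayed above 2 CPM in AxR. Rims2, a presynaptic active-zone protein, was at 5.88 ± 0.92 CPM in P and at 0 in every AxR library.

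**Figure D4:**
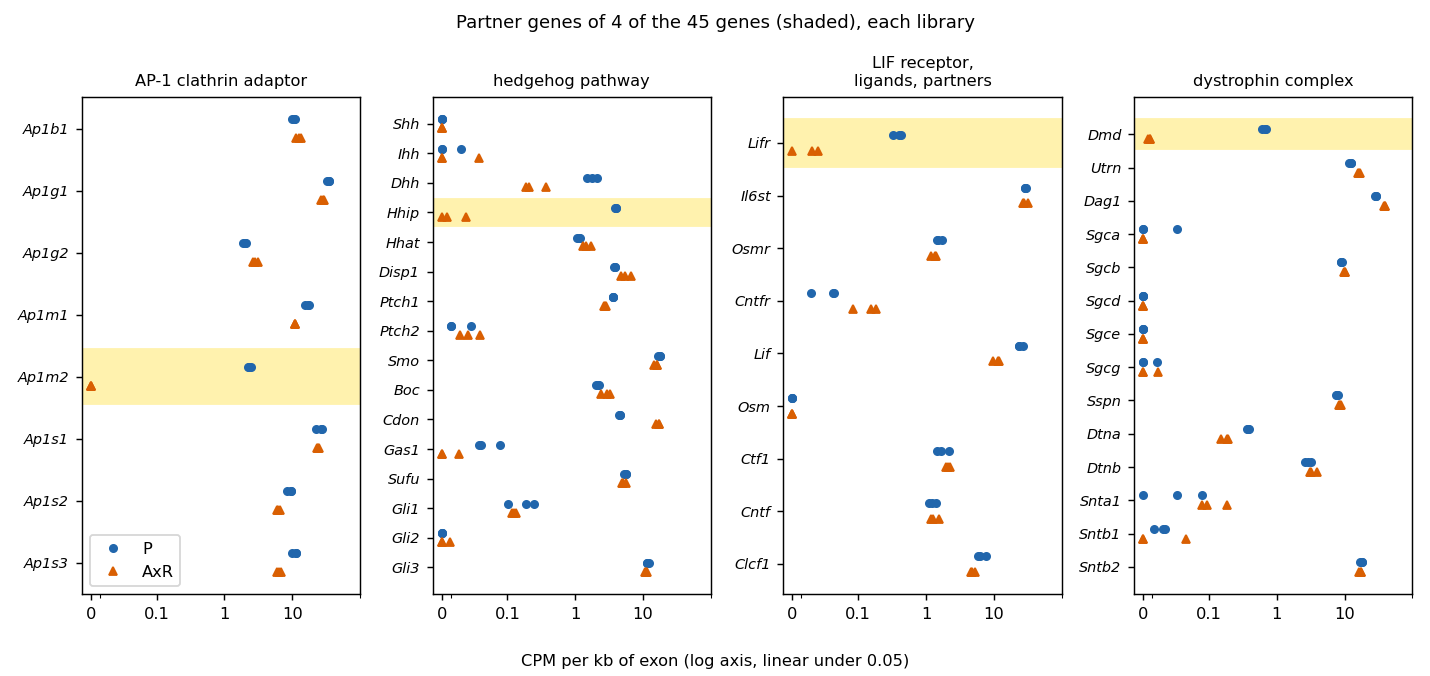
Level per kb of exon (CPM per kb, log axis that is linear under 0.05) of genes that act with 4 of the 45 genes, in each P library (circles) and AxR library (triangles). Rows shaded in yellow are Ap1m2, Hhip, Lifr and Dmd, whose level at or near 0 in AxR comes from the choice of the genes. The 7 other AP-1 subunits, Smo, Il6st and Dag1 keep levels of the same order in both lines. Other partners differ, Dhh, Lif and Dtna being lower in AxR and Cdon higher.

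Extracellular signals and their antagonists numbered 4. HHIP binds hedgehog ligands at the cell surface and limits their signal, and Hhip is itself a transcriptional target of the pathway. Hhip (ENSMUSG00000064325.4, chr8:79965851-80058006) was at 36.4, 36.3 and 35.2 CPM in P and at 0.245, 0 and 0.0578 CPM in AxR, the highest AxR value standing for 4 counts. The ratio of summed counts was 355 (95% interval 152 to 1096). Dhh, one of the 3 hedgehog ligands, was at 7.92 ± 1.27 CPM in P and 1.13 ± 0.453 CPM in AxR, while Shh was at 0 in every library. The receptor genes Ptch1 and Smo were at 50.7 ± 0.13 and 98.5 ± 4.32 CPM in P and at 38.7 ± 1.21 and 87.0 ± 4.53 CPM in AxR. Gli1, a further pathway target, was at 0.896 ± 0.361 CPM in P and 0.629 ± 0.0481 CPM in AxR. Cdon, a hedgehog co-receptor, was at 35.2 ± 0.693 and 129 ± 6.85 CPM, the other way round.

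SLIT2 is a secreted guidance cue that signals through ROBO receptors. Slit2 was at 5.37, 4.45 and 4.78 CPM in P and had no count in AxR, so P was at least 80.1-fold higher. Slit2 has the longest exon sequence of the set and the lowest level per kb, 0.191 CPM per kb. Robo1, the only ROBO gene above 0.2 CPM on average in either line, was at 0.656 ± 0.127 CPM in P and 1.60 ± 0.707 CPM in AxR. SEMA6D is a transmembrane semaphorin that binds plexin A receptors. Sema6d was at 7.71, 6.56 and 9.87 CPM in P and at 0.245, 0.127 and 0.173 CPM in AxR. The plexin A4 gene Plxna4 was at 12.5 ± 0.833 CPM in P and 1.08 ± 0.201 CPM in AxR, and Plxna1 at 124 ± 5.48 and 152 ± 3.31 CPM. Stc1, which encodes the secreted glycoprotein stanniocalcin 1, was at 6.92 ± 0.91 CPM in P and 0.104 ± 0.133 CPM in AxR.

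The 5 cell surface receptors were all low in P, between 3.14 and 6.21 CPM. LIFR pairs with gp130, the product of Il6st, to bind leukemia inhibitory factor. Lifr was at 4.57, 3.57 and 4.26 CPM in P and at 0.306, 0 and 0.231 CPM in AxR. Il6st was at 322 ± 9.14 CPM in P and 321 ± 31.1 CPM in AxR, and the ligand gene Lif at 106 ± 9.02 and 48.1 ± 4.99 CPM. The low level of Lifr in AxR comes from the choice of the genes. Among other ligand genes, Clcf1 was at 25.2 ± 3.88 CPM in P and 18.5 ± 1.39 CPM in AxR. Ctf1 was at 3.24 ± 0.696 and 3.83 ± 0.220 CPM, Cntf at 1.33 ± 0.141 and 1.43 ± 0.208 CPM, and Osm at 0 in every library. Adgrl3 (latrophilin 3, an adhesion G protein-coupled receptor) was at 6.21 ± 1.4 CPM in P with no count in AxR, and Adgrg3, another of that class, was at 4.24 ± 0.90 and 0.245 ± 0.191 CPM. The Wnt receptor gene Fzd9 was at 3.14 ± 0.51 CPM in P and 0.123 ± 0.127 CPM in AxR. Cxcr3, the receptor of the interferon-induced chemokines CXCL9, CXCL10 and CXCL11, was at 3.34 ± 0.21 and 0.0831 ± 0.072 CPM, while Cxcl10 was at 0.372 ± 0.0795 CPM in P and 1.79 ± 0.468 CPM in AxR.

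Intracellular signalling was the most numerous role, with 7 genes. Gng11 encodes a gamma subunit of heterotrimeric G proteins. It was at 13.7, 16.1 and 14.97 CPM in P, and its 222, 275 and 232 counts there stood against 0 in each AxR library, at least a 246-fold difference and the largest bound among the genes without a count. Of the other G protein beta and gamma genes 10 were tested, of which 3 were higher and 3 lower in AxR (edgeR quasi-likelihood test, adjusted p under 0.05), against 32.8% and 30.8% of all genes tested. Gnb4, a beta subunit, was at 15.2 ± 1.72 CPM in P and 2.03 ± 0.276 CPM in AxR (log2 fold change -2.88 ± 0.15 SE, adjusted p = 3.03e-10 by edgeR). The most abundant beta subunits, Gnb1 and Gnb2, were at 486 and 298 CPM in P and at 566 and 298 CPM in AxR.

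Rapgef5, an exchange factor for Rap GTPases, was at 6.91, 8.49 and 8.58 CPM in P and had 2 counts in AxR. Fam83b, whose product takes part in EGFR and RAS signalling, was at 6.67, 5.97 and 7.62 CPM in P and at 0.184, 0.190 and 0.173 CPM in AxR, 3 counts in each library. Plcl1, a phospholipase C-like protein without catalytic activity, was at 6.50 ± 0.50 and 0.0601 ± 0.0613 CPM. Iqgap2, a scaffold of the actin cytoskeleton, was at 5.65 ± 1.1 CPM in P and 0.0590 ± 0.0579 CPM in AxR. Samsn1, an adaptor best known from lymphocytes, was at 4.08 ± 0.49 and 0.0987 ± 0.0892 CPM. Edaradd, the death-domain adaptor of the ectodysplasin receptor, was at 3.45 ± 0.61 CPM in P with no count in AxR. Its ligand gene Eda was at 7.07 ± 1.18 CPM in P and 2.43 ± 0.147 CPM in AxR, and the receptor gene Edar had no count in P and 0.403 ± 0.0516 CPM in AxR.

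Of the 5 transcription regulators, Sox12 was the highest. Sox12 (ENSMUSG00000051817.8, chr2:152393611-152398063) belongs to the SoxC group. It was at 29.1, 25.6 and 25.5 CPM in P and kept 7, 7 and 6 counts, or 0.429, 0.443 and 0.347 CPM, in AxR. The ratio of summed counts was 66.0 (95% interval 42.6 to 108), and it was thus both among the most expressed genes of the set and among those nearest the upper limit in AxR. Tlx3 and Dach1, a homeobox factor and a corepressor of the retinal determination network, were at 2.83 ± 0.51 and 3.40 ± 0.42 CPM in P and had no count in AxR. Msx3, a homeobox gene of the dorsal neural tube, was at 2.80 ± 0.57 CPM in P and 0.142 ± 0.0366 CPM in AxR. Zfp985, a zinc finger gene, was at 2.54 ± 0.44 and 0.260 ± 0.118 CPM.

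Transporters and channels were 4. Abcg2 encodes a drug efflux pump that marks the side population of stem-like cells. Abcg2 (ENSMUSG00000029802.13, chr6:58584523-58695676) was at 19.1, 24.1 and 18.7 CPM in P and at 0.429, 0.0633 and 0.116 CPM in AxR. AxR replicate 1 held 7 of its 10 AxR counts, and the ratio of summed counts was 102 (95% interval 55.4 to 214). Atp13a4, a P5-type transport ATPase, was at 3.75 ± 0.57 CPM in P and 0.325 ± 0.0483 CPM in AxR. Kcnj4, an inward rectifier potassium channel, was at 3.65 ± 0.19 and 0.0819 ± 0.0388 CPM. Trpm6, a magnesium channel with a kinase domain, was at 2.98 ± 0.47 and 0.0782 ± 0.088 CPM.

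The cytoskeleton and scaffold genes were led by Dmd. Dystrophin links actin to the dystroglycan complex at the membrane, and short forms of it are made outside muscle. Dmd (ENSMUSG00000045103.17, chrX:82948870-85206141) was at 15.7, 14.3 and 16.6 CPM in P and at 0.184, 0.190 and 0.116 CPM in AxR. Gene-level counts do not say which form was made. Its paralog Utrn was at 209 ± 8.39 CPM in P and 282 ± 11.3 CPM in AxR, and Dag1, the dystroglycan gene, at 183 ± 3.67 and 249 ± 3.94 CPM. Of the 14 genes of the complex, 8 were at 2 CPM or more in P and 7 in AxR. Tmod2, which caps the pointed ends of actin filaments, was at 3.89, 3.69 and 2.90 CPM in P and at 0.0613, 0.190 and 0.116 CPM in AxR. Whrn, a PDZ scaffold of stereocilia, was at 3.11 ± 0.34 CPM in P and at 0 in AxR. Tchh, the hair follicle protein trichohyalin, was at 2.35, 2.87 and 3.87 CPM in P, the widest relative spread of the set, and at 0.361 ± 0.105 CPM in AxR.

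Among the 6 enzymes and protease inhibitors, Ube2ql1, a ubiquitin-conjugating enzyme, and Decr1, the mitochondrial reductase needed to oxidize polyunsaturated fatty acids, had no count in AxR. Ube2ql1 was at 8.70, 9.08 and 8.65 CPM in P, and Decr1 at 6.91, 6.62 and 5.81 CPM. Decr2, the peroxisomal counterpart of Decr1, was higher in AxR with a log2 fold change of 0.67. Cd38, an NAD hydrolase, had the highest residual level of the set. It was at 3.27, 2.64 and 2.52 CPM in P and at 0.368, 0.443 and 0.463 CPM in AxR, a ratio of 6.61 (95% interval 4.16 to 11.02). Rnf113a2, an intronless copy of the RING finger gene Rnf113a1, was at 5.59 ± 0.60 and 0.326 ± 0.104 CPM. Tmtc2, a tetratricopeptide protein of the endoplasmic reticulum, and Serpinb2, a plasminogen activator inhibitor, were at 2.50 ± 0.61 and 2.55 ± 0.44 CPM in P, with 1 count each in AxR.

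Of the other proteins, Epdr1 (8.33, 7.67 and 8.13 CPM in P), a lysosomal ependymin-related protein, and Samd5 (2.57 ± 0.28 CPM) had no count in AxR. Tmem74, a transmembrane protein linked to autophagy, was at 5.07 ± 0.49 CPM in P and 0.160 ± 0.0616 CPM in AxR. The tetraspanin gene Tspan7 was at 2.28, 2.28 and 2.39 CPM in P with 1 count in AxR. Of the noncoding genes, Gm12022 was at 8.26 ± 0.72 CPM in P with 2 counts in AxR, and Gm4524 at 2.76 ± 0.43 and 0.175 ± 0.0999 CPM. Values of Gm4524, Stc1 and Zfp985 included shares of reads that match several genes, which makes these 3 levels less certain. The gene models of Rnf113a2 and Plcl1 overlap Bbof1 and Gm38056 on the same strand, and sharing of reads within these pairs was not tested. Bbof1 was at 1.62 ± 0.27 CPM in P and 0.737 ± 0.077 CPM in AxR, and Gm38056 at 1.78 ± 0.47 and 2.33 ± 0.65 CPM.

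The 45 genes were spread over 18 chromosomes. Chromosome 15 held 5 (Mal2, Rims2, Tmem74, Lifr and Kcnj4), 1.13% of its genes at 2 CPM or more in every P library. Over the other chromosomes with members this share ran from 0.122% (chromosome 7) to 0.897% (chromosome 13). Chromosomes 5 and 13 held 4 each. None of the 45 genes lay on 17 or 18, and genes set aside that met the limits lay on 15 and 17, among others. Among the 45 genes only 1 pair was within 1 Mb, Tmod2 and Fam83b on chromosome 9, whose gene models are 0.879 Mb apart. Zfp985 lies 0.162 Mb and 0.220 Mb from 2 of the genes set aside, Zfp978 and Zfp988, in a cluster of zinc finger genes on chromosome 4. Rnf113a2 lies 0.748 Mb from a further gene set aside, on chromosome 12.

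Whether the loss of RNA extended to adjoining genes was asked of the nearest tested gene on each side, which the limits did not use. These were 89 genes with a median gap of 87.9 kb, and 79 of them were at 2 CPM or more in AxR on average. Some gaps were far wider, as 4597 kb on one side of Tmtc2, so a nearest tested gene need not adjoin the member. In AxR 36 were lower (40.4%, against 30.8% of all genes tested) and 25 higher (28.1%, against 32.8%). Their median log2 fold change was -0.06, against 0.01 over all genes tested. A log2 fold change of -1 or less with an adjusted p under 0.05 was found for 7 (7.87%, against 4.72%). For 37 of the 45 genes both neighbours were at 2 CPM or more in AxR, for 6 one of them and for 2 neither. The wider view differed little in share, as 38.2% were lower among the 262 genes that are the 3 nearest on each side and 37.7% among the 326 within 500 kb.

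**Figure D5:**
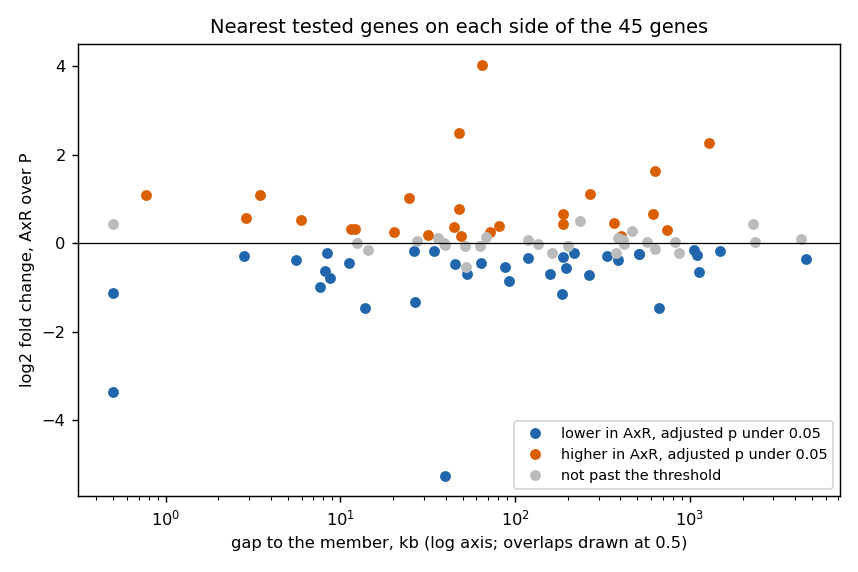
Log2 fold change in AxR over P (vertical axis) of the 89 nearest tested genes on each side of the 45 genes, against the gap to the member in kb (horizontal log axis, overlaps drawn at 0.5). Blue points are lower and orange points higher in AxR at an adjusted p under 0.05 (edgeR), grey points did not pass it. Most points lie within 1 of 0, and the lowest is Zfp982 at -5.25.

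The neighbours with the largest differences stood beside Zfp985 and Gm4524. Zfp982, 39.8 kb from Zfp985 and itself one of the genes set aside by name, was at 0.741, 1.17 and 1.31 CPM in P, below the 2 CPM limit, and had 1 count in AxR (log2 fold change -5.25 ± 0.71 SE, adjusted p = 1.20e-05 by edgeR). P3h2, a collagen prolyl 3-hydroxylase, overlaps Gm4524 on the opposite strand. P3h2 fell from 11.5 ± 0.70 CPM in P to 1.10 ± 0.060 CPM in AxR (log2 fold change -3.37 ± 0.16 SE, adjusted p = 9.60e-11 by edgeR), and the kit keeps strand while the strand setting of the counting is not given in the sources used here, so reads of this pair may not be separable. On the other side of Gm4524, Trp63, with at most 2 counts in a P library, rose from 0.0627 to 1.11 CPM (log2 fold change 4.03, adjusted p = 1.80e-05 by edgeR). Fuom, 47.7 kb from Msx3, Sqor, 1280 kb from Sema6d, and Serpinb5, a nearest tested gene of Serpinb2, rose as well. Their log2 fold changes were 2.50, 2.27 and 1.62. Zcchc3, a nearest tested gene of Sox12, and Samd12, 669 kb from Mal2, fell by 1.47 and 1.46 on the log2 scale. They remained at 3.11 and 53.0 CPM in AxR. Cd38 lies between Bst1, a gene of the same enzyme family, and Gm7879, which rose by log2 fold changes of 1.01 and 1.09.

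Family relatives, tested genes that share the symbol root of a member, were lower in AxR about as often as higher. Of 246 relatives 86 were lower (35.0%, against 30.8% of all genes tested) and 87 higher (35.4%), with a median log2 fold change of 0.00. The large roots Rnf and Atp group genes by a loose name, and without them 44 of 120 were lower (36.7%) and 35 higher (29.2%). By root, 8 of 14 semaphorin genes were lower and 2 higher, 4 of 6 Sox genes were lower and 2 higher, and 4 of 5 Serpinb genes were higher and 1 lower. Sema3c, a secreted semaphorin, was at 0.697 ± 0.091 CPM in P and had no count in AxR, and Dach2, the paralog of Dach1, fell from 0.762 ± 0.10 to 0.0808 ± 0.070 CPM (adjusted p = 0.000304 by edgeR). The Wnt receptor gene Fzd1 fell from 13.6 ± 0.88 to 1.95 ± 0.72 CPM (log2 fold change -2.78 ± 0.18 SE, adjusted p = 3.40e-09 by edgeR). Serpinb6b rose from 1.15 to 8.39 CPM, and Sema3a and Atp8b1 fell by 2.59 and 2.71 on the log2 scale. Atp2a3, a calcium pump, rose with a log2 fold change of 3.25. Smaller changes were found for Iqgap1, which fell by 0.14 on the log2 scale beside Iqgap2, and for Tmod3, which rose with a log2 fold change of 0.51 beside Tmod2.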

How the data were processed

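Per the labels and the study's methods, the authors used STAR 2.6.0a for alignment (GRCm38), and the deposited values are estimated counts from RSEM 1.3.1, which can split 1 read over several matching genes. The strand setting is not given in the sources used here. The deposited counts are not normalized. The members and every gene list were chosen with earlier results of these data known, and the partner lists with the members known.

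CPM was the estimated count over the column sum. After rounding, genes kept by filterByExpr entered a robust quasi-likelihood F test in edgeR 4.0.16 (R 4.3.3) with upper quartile factors, with line as the only term and Benjamini-Hochberg adjustment over 13550 genes at a threshold of 0.05. Log2 fold changes are from that fit. Folds of members are ratios of summed counts with exact 95% binomial intervals. For members without an AxR count the bound is the mean P CPM over a floor of 3 counts in the summed depth of the AxR libraries. Neither covers more than counting error. Positions came from GENCODE M21. Replicates of a line differed beyond counting noise (chi-square per degree of freedom 4.75 to 17.9) and were kept separate. The same-numbered P and AxR libraries did not deviate together (correlations -0.02, -0.01 and -0.02), so no pairing by number was seen. With 3 libraries per line this cannot show how they were prepared.

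Named genes were the 30 highest members, any member within 1 Mb of another, those nearest the limits, and up to 8 neighbours and 8 relatives with the largest log2 fold changes, of which 1 relative is not reported here. The other members were named so that each is accounted for, and further relatives, neighbours and partners were chosen after their values were seen. Normalization, filters, other tools, the limits, left-out libraries and the replicate number as a block were tried as alternatives.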

Additional observations from a re-analysis of the deposited data

How the results depend on the processing

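The number of genes meeting the limits followed the limits. It was 88 with 1 CPM and 17 with 5 CPM as the P limit, 80 with 1 CPM and 32 with 0.25 CPM as the AxR limit, and 70 with the limits set on the mean of each line. Upper quartile and TMM scaling each left it at 45, and leaving out a library gave 46 to 50. The median P level of the 45 genes was 4.87 CPM without division by exon length. Taking the 3 nearest neighbours on each side gave 76 higher and 100 lower, and all within 500 kb 99 higher and 123 lower. Relatives numbered 35 higher and 44 lower without the roots Rnf and Atp, an alternative chosen after seeing the data. With the replicate number as a block, 4304 genes were higher and 4023 lower, 24 and 35 among neighbours and 84 and 83 among relatives. The block moved no count by over 1.5 times. Leaving out each library gave 4124 to 4499 genes higher and 3782 to 4112 lower, with 23 to 24 neighbours higher and 29 to 35 lower, and 79 to 86 relatives higher and 76 to 85 lower. DESeq2 called 3962 higher and 3913 lower. The 45 log2 fold changes stayed below 0 in all 585 refitted values, which the choice of genes fixes. Residual AxR levels rest on at most 21 counts per gene over 3 libraries, and differences in residual level among members were not tested.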
